A study of Danio rerio with 6 samples.

Results

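The genes described here are brakes on the kinase complex mTORC1 and receptors of mitophagy, in larvae of the zebrafish Danio rerio aged 5 days after fertilization (5 dpf). They were chosen as the rows of the count tables whose Ensembl symbol, read without regard to case, is ddit4, sesn2, sesn3, deptor, castor1, sqstm1, bnip3, pink1, fundc1 or optn. That rule found 9 genes, 1 for each of 9 of the 10 symbols, among 25859 genes in all. castor1 matched no row and was not analysed here. All 9 passed the filter on low counts, which 21602 genes passed.

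Polyadenylated RNA was sequenced, without strand information, from whole larval bodies from which the tip of the caudal fin had been cut for genotyping. The hspd1 knockout group (hspd1-/-) and the control group (hspd1+/+) each held 3 libraries, and each library was a pool of 5 larvae. Both genotypes came from in-crosses of carriers of 1 knockout line, with pools made from 3 mating sets. The product of hspd1 is HSP60, a chaperonin that helps proteins fold in the mitochondrial matrix, and the comparison asks which transcripts differ in larvae homozygous for its knockout. All fold changes are knockout over control.

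mTORC1 promotes protein synthesis and holds back autophagy when amino acids, growth factors and energy are plentiful. Its brakes act at different points: Ddit4 (also called Redd1) through the TSC complex, the sestrins through the GATOR complexes that read amino acid supply, and Deptor by binding the kinase itself. Mitophagy is the removal of mitochondria by autophagy. Bnip3 and Fundc1 are receptors in the outer mitochondrial membrane that bind the autophagosome protein LC3, Pink1 is a kinase that marks damaged mitochondria for ubiquitination, and Sqstm1 (p62) and Optn are adaptors that link ubiquitinated cargo to LC3. These roles are known mainly from mammalian cells.

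The pools held 18517874 to 20331675 counts. hspd1 transcript was lower in the knockout pools but present in all of them, at 73.4, 67.9 and 82.3 CPM (read counts relative to library size, with TMM scaling, the trimmed mean of M-values) against 124, 133 and 132 CPM in control pools 1 to 3. That is a log2 fold change of −0.79 with an SE of 0.11 (quasi-likelihood test of edgeR with Benjamini-Hochberg adjustment, edgeR adjusted p = 0.00162). Of all genes tested, 4.01% passed an adjusted p of 0.05, 1.47% higher and 2.54% lower in knockout pools. Marker lists of some tissues moved with genotype. The summed level of 16 hepatocyte genes was 1927 to 2819 CPM in knockout pools and 6122 to 7246 CPM in control pools, with 13 of the 16 lower. For 13 exocrine pancreas genes it was 1451 to 1680 CPM against 4566 to 7802 CPM, with 12 lower, and for 9 absorptive intestine genes 2188 to 3005 CPM against 3376 to 4644 CPM, with 6 lower. Of 10 skeletal muscle, 6 neuron and 8 macrophage and neutrophil genes none passed with edgeR, DESeq2 or limma-voom, and at an unadjusted p under 0.05 the only ones were 2 macrophage and neutrophil genes, both higher. Summed levels were 52810 to 64290 CPM against 52850 to 64460 CPM for muscle, 1090 to 1574 CPM against 1466 to 1745 CPM for neurons, and 90.8 to 101 CPM against 82.2 to 90.9 CPM for macrophages and neutrophils. The log2 fold change was negative in all 6 neuron genes, with a median of −0.17. It was negative in 3 of the 10 muscle genes and 3 of the 8 macrophage and neutrophil genes. No gene of the marker lists was at 0 in all pools. The part of tissue make-up in the results below was not tested, and in whole larvae fewer cells of a type and less RNA per cell cannot be told apart.

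Of the 9 genes, sesn2 rose, ddit4 fell and 7 did not pass the test. Their median log2 fold change was 0.13, against −0.01 over all genes tested. A positive value was seen in 7 of the 9, against 10597 of the 21602 genes tested. Knockout and control pools did not overlap for 3 of the 9, sesn2 and optn being higher and ddit4 lower in the knockout pools, whereas 21.4% of all genes tested had no overlap (10.8% higher and 10.6% lower in knockout pools). At an unadjusted p under 0.05 stood 3 of the 9 and 15.6% of all genes tested. Both genes that passed are brakes on mTORC1, and they moved in opposite directions.

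**Figure D1:**
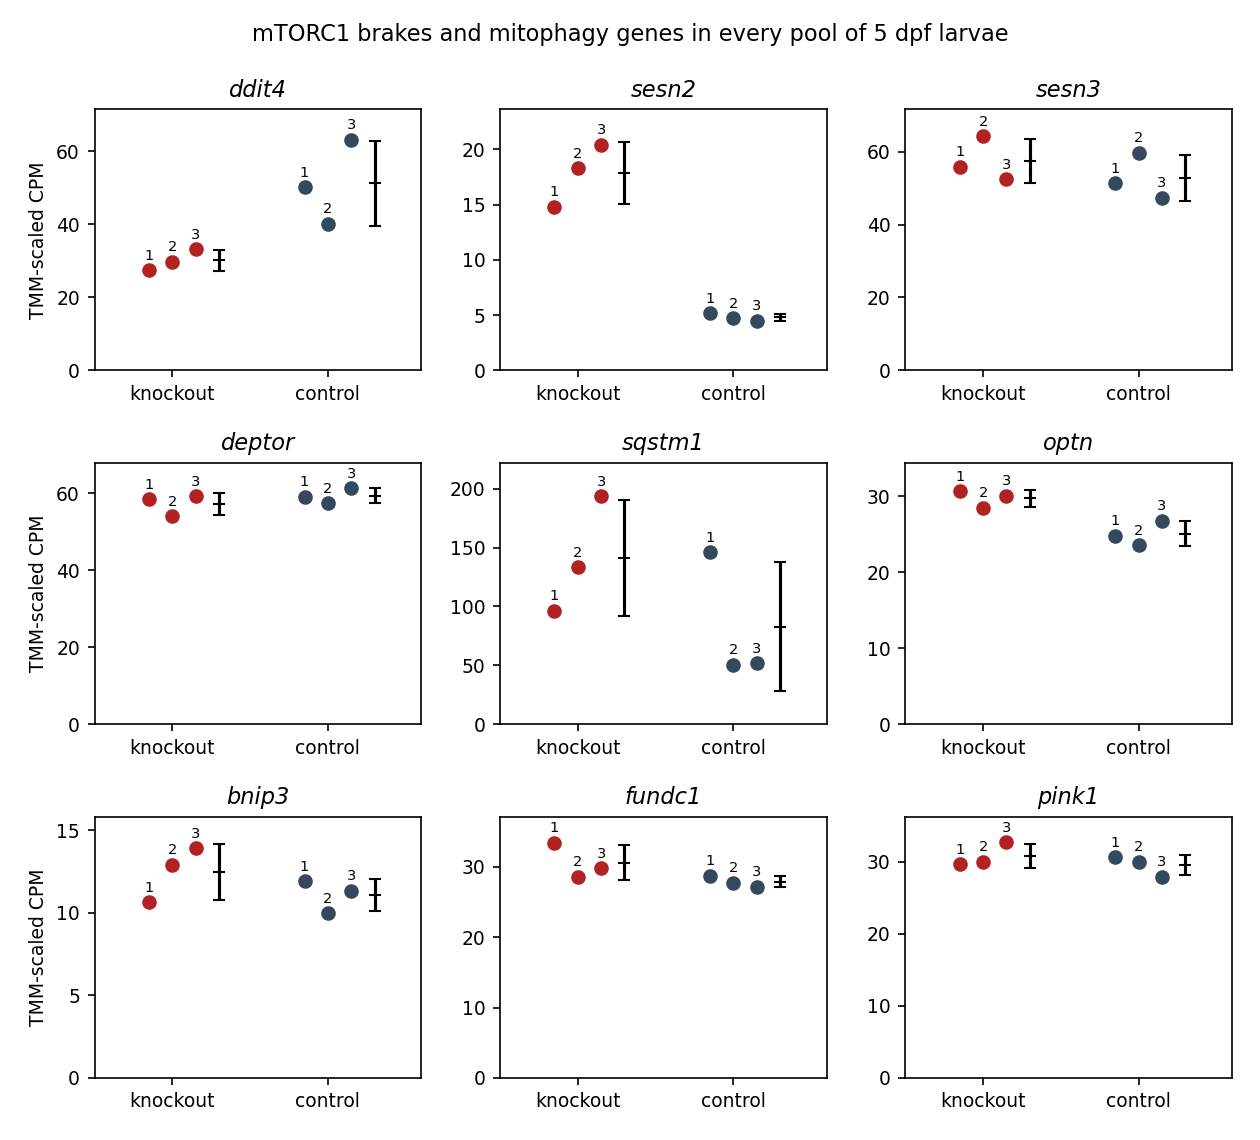
Level of each gene in every pool, in TMM-scaled CPM, with knockout pools on the left (red) and control pools on the right (dark), numbered as in the labels; bars are mean ± SD of 3 pools and every axis starts at 0. The knockout pools of sesn2 sit at 14.8 to 20.4 CPM, above control pools at 4.50 to 5.18 CPM, and control pool 1 of sqstm1, at 146 CPM, sits among the knockout pools.

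sesn2 (ENSDARG00000070012), a sestrin that in human cells binds leucine and restrains mTORC1 when leucine is scarce, had 14.8, 18.3 and 20.4 CPM in knockout pools 1, 2 and 3, against 5.18, 4.69 and 4.50 CPM in control pools 1, 2 and 3. The lowest knockout pool was well above the highest control pool, and the control pools lay close together. The means were 17.9 ± 2.83 CPM in knockout pools and 4.79 ± 0.348 CPM in control pools (SD, n = 3 each), from 1025 and 273 reads in all. sesn2 was 3.72-fold higher in the knockouts, with a log2 fold change of 1.90 (SE 0.15, 95% interval 1.56 to 2.23, edgeR adjusted p = 4.145e-05). It passed with every pool left out in turn, at log2 fold changes of 1.80 to 2.01.

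The other sestrins did not pass. sesn3 (ENSDARG00000015822) had 55.9, 64.2 and 52.4 CPM in knockout pools 1, 2 and 3, against 51.3, 59.6 and 47.4 CPM in control pools 1, 2 and 3. The groups overlapped, and pool 2 was the highest in both. Its log2 difference was 0.12 (95% interval −0.15 to 0.40, edgeR adjusted p = 0.684). sesn1 (ENSDARG00000020693), the family member outside the chosen genes and a p53 target in mammals, had 351, 499.6 and 471 CPM in knockout pools, against 336, 292 and 293 CPM in control pools.

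Knockout and control pools of sesn1 did not overlap, but knockout pool 1 was close to control pool 1. The log2 difference was 0.52 (95% interval 0.20 to 0.84, edgeR adjusted p = 0.0802), and the gene passed without knockout pool 1 (log2 fold change 0.66, adjusted p = 0.0109), with upper-quartile scaling (0.0417) and with DESeq2 (0.00906). The difference between sestrins was read inside each pool as a log2 ratio of read counts, from which library scaling drops out. The ratio of sesn2 to sesn3 averaged −1.69 ± 0.30 in knockout pools and −3.46 ± 0.19 in control pools (SD, n = 3 each), a difference of 1.76. The ratio of sesn2 to sesn1 averaged −4.62 ± 0.13 and −6.00 ± 0.04 in knockout and control pools, a difference of 1.38. Both pairs of groups were fully separated, with an exact two-sided permutation p = 0.1, which is the smallest that 3 against 3 pools allow and remained 0.1 when adjusted over these 2 ratios. The separation follows from the rise of sesn2 given above, so the ratios are no separate support for it.

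ddit4 (ENSDARG00000037618), which is induced by several kinds of stress and activates the TSC complex in mammals, had 27.4, 29.7 and 33.2 CPM in knockout pools 1, 2 and 3. It had 50.2, 40.1 and 63.2 CPM in control pools 1, 2 and 3. Every knockout pool was below every control pool, and the control pools were spread more widely, with a coefficient of variation of 22.6% against 9.74% in knockout pools.

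The means of ddit4 were 30.1 ± 2.93 CPM in knockout pools and 51.2 ± 11.6 CPM in control pools (SD, n = 3 each), a log2 fold change of −0.77 (SE 0.16, 95% interval −1.12 to −0.41, edgeR adjusted p = 0.0208). It also passed with DESeq2 (adjusted p = 2.092e-04) and with limma-voom (0.0269). It did not pass without knockout pool 1 (log2 difference −0.70, edgeR adjusted p = 0.0685), knockout pool 2 (−0.76, 0.0781) or control pool 3 (−0.58, 0.0697), while the direction was the same in all 6 cases.

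deptor (ENSDARG00000040930), the inhibitor that binds mTOR directly, differed least of the 9. It had 58.4, 54.0 and 59.17 CPM in knockout pools, against 59.12, 57.5 and 61.3 CPM in control pools. The groups overlapped, and the log2 difference was −0.05 (95% interval −0.27 to 0.16, edgeR adjusted p = 0.846). castor2 (ENSDARG00000018985), a relative of the arginine sensor castor1, had 69.4, 80.8 and 79.5 CPM in knockout pools, against 76.8, 57.6 and 55.3 CPM in control pools. Control pool 1 lay among the knockout pools, and the log2 difference of 0.28 did not pass (95% interval −0.03 to 0.58, edgeR adjusted p = 0.38). Without control pool 1 the log2 difference was 0.45 and was just short of the threshold (edgeR adjusted p = 0.0533).

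**Figure D2:**
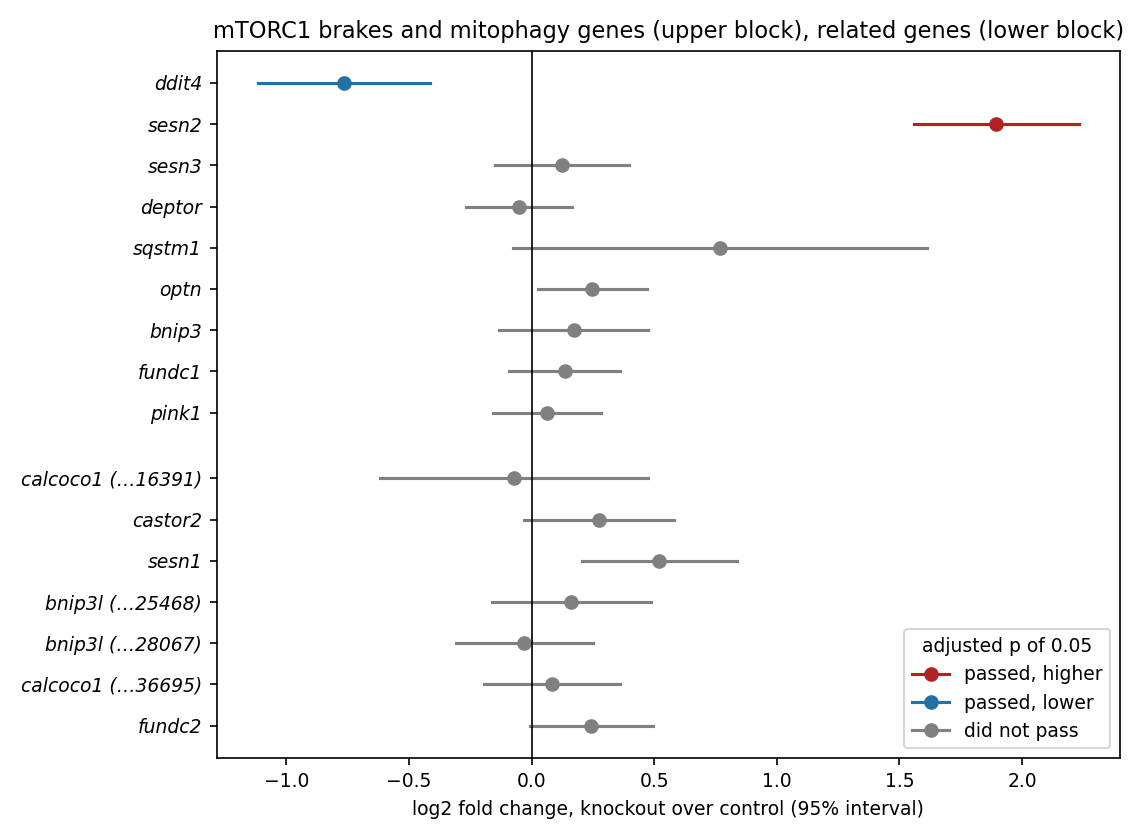
Log2 fold change (knockout over control) of the 9 genes, upper block, and of 7 related genes, lower block; points are edgeR estimates, lines are 95% intervals, and colour marks genes past an adjusted p of 0.05. sesn2 at 1.90 and ddit4 at −0.77 are the genes that passed, and the interval of sqstm1, from −0.08 to 1.61, is the widest.

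sqstm1 (ENSDARG00000075014) codes for p62, the ubiquitin-binding adaptor that is itself degraded by autophagy. Its levels were 96.5, 133 and 194 CPM in knockout pools 1, 2 and 3, against 146, 50.6 and 51.9 CPM in control pools 1, 2 and 3. Control pool 1 stood apart from the other control pools and above knockout pools 1 and 2, so the groups overlapped. The means were 141 ± 49.0 CPM in knockout pools and 82.9 ± 54.7 CPM in control pools (SD, n = 3 each), and the log2 difference of 0.77 missed the threshold (95% interval −0.08 to 1.61, edgeR adjusted p = 0.376). Without control pool 1 the log2 fold change was 1.47 and passed (edgeR adjusted p = 0.00516), which brought the number of the 9 genes that rose to 2. With each of the other pools left out, it lay between 0.48 and 0.98 and did not pass.

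The spread of sqstm1 within groups exceeded counting error. Its coefficient of variation was 34.7% in knockout pools and 66.0% in control pools, where counting error alone gives 1.92% and 2.50%. The pooled within-group SD of its log2 CPM was 0.71, larger than for 99.7% of the 12206 genes with a mean of at least 10 CPM, whose median was 0.14. The other 8 genes had SDs of 0.06 (deptor) to 0.25 (ddit4), and that of ddit4 was larger than for 87.2% of those genes.

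The same 12206 genes were ranked by how far control pool 1 lay above the next control pool on the log2 scale. The first 4 were hsp70.1, hsp70.3, hsp70l and hspa2, with gaps of 3.22, 2.60, 2.45 and 2.15. They were followed by tcap, a muscle sarcomere protein gene (1.63), egln3, an oxygen-sensing prolyl hydroxylase gene (1.61), and sqstm1 (1.49). hsp70.1, hsp70.3 and hsp70l belong to the HSP70 chaperones, which include forms induced by heat and by misfolded proteins. The genes shown from this ranking were chosen after the values were seen and were not tested as a group. hsp70.3 had 28.3, 48.2 and 143.5 CPM in knockout pools 1, 2 and 3, against 105.7, 17.3 and 15.6 CPM in control pools 1, 2 and 3. hsp70l had 20.7, 37.0 and 73.0 CPM in knockout pools, against 73.0, 13.3 and 7.04 CPM in control pools.

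For both hsp70 genes, as for sqstm1, knockout pool 3 and control pool 1 were the highest and control pools 2 and 3 the lowest. hsp70.3 and hsp70l did not pass with all pools (edgeR adjusted p = 0.716 and 0.794). Neither did hsp70.1 and hspa2 (0.916 and 0.692). Without control pool 1, 3 of the 4 passed: hsp70.1 (log2 fold change 2.26, edgeR adjusted p = 0.00478), hsp70l (2.11, 0.0264) and hspa2 (1.85, 0.04). hsp70.3 did not (2.16, 0.0562), nor did tcap (1.62, 0.167) or egln3 (−0.19, 0.813). All of these genes were picked for a high control pool 1, so leaving out that pool raises their fold changes by selection. The calls without it are a description only. Reads may be divided wrongly among the closely related hsp70 copies. Their part in the spread of sqstm1 was not tested. By Pearson r of log2 CPM over the 6 pools, the genes most like sqstm1 were fip1l1a, mmp28 and usp28 (0.997, 0.996 and 0.995). None of them passed (edgeR adjusted p = 0.536, 0.532 and 0.398). Pearson r takes no account of the size of a change, and fip1l1a ran only from 3.65 to 5.73 CPM over the pools. The order of the pools was the same as for sqstm1 in 35 of the 21602 genes tested. That count was not compared with the number expected for an arbitrary order of 6 pools, so it does not mark a group of genes.

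**Figure D3:**
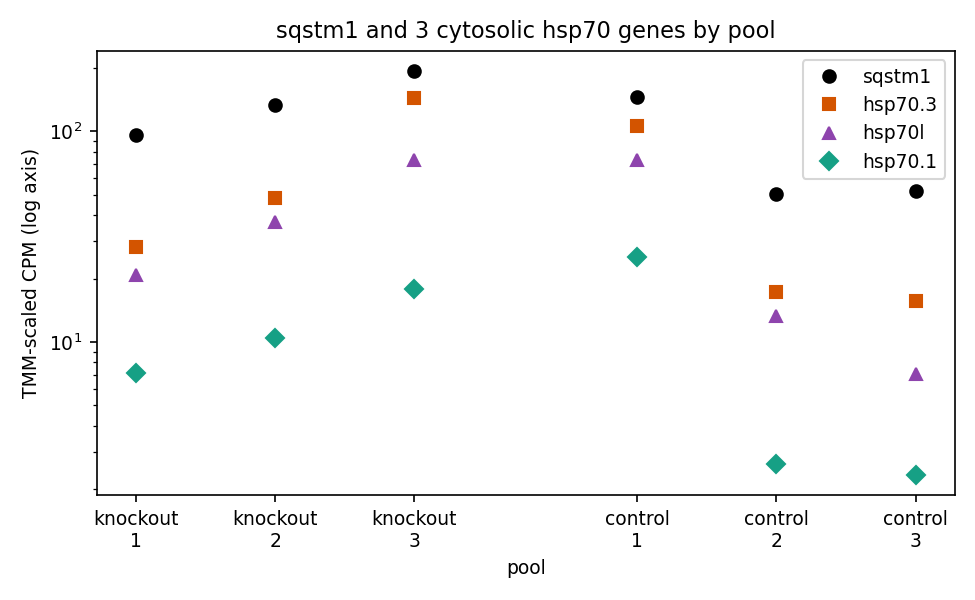
TMM-scaled CPM (log axis) of sqstm1 and of hsp70.3, hsp70l and hsp70.1 in each knockout pool (left) and control pool (right), 1 marker per pool. Control pool 1 lies far above control pools 2 and 3 for all 4 genes, at 146 CPM against 50.6 and 51.9 CPM for sqstm1.

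optn (ENSDARG00000002663), the other ubiquitin-binding adaptor, had 30.7, 28.5 and 30.1 CPM in knockout pools, against 24.8, 23.5 and 26.8 CPM in control pools. The groups did not overlap, and all pools lay in a narrow range. The means were 29.7 ± 1.14 CPM in knockout pools and 25.0 ± 1.65 CPM in control pools (SD, n = 3 each), and the log2 difference of 0.25 (95% interval 0.03 to 0.47) missed the threshold (edgeR adjusted p = 0.256). No alternative scaling, filter, tool or left-out pool brought it past the threshold.

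The receptors of the outer mitochondrial membrane did not pass either. bnip3 (ENSDARG00000099961) had 10.6, 12.9 and 13.9 CPM in knockout pools, against 11.9, 9.99 and 11.3 CPM in control pools. These groups overlapped, and the log2 difference was 0.17 (95% interval −0.13 to 0.48, edgeR adjusted p = 0.607). fundc1 (ENSDARG00000040822) had 33.4, 28.6 and 29.8 CPM in knockout pools, against 28.7, 27.8 and 27.2 CPM in control pools. Knockout pool 2 was just below control pool 1, and the log2 difference was 0.13 (95% interval −0.09 to 0.36, edgeR adjusted p = 0.583).

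Relatives of these receptors gave similar values. Of the genes with the symbol bnip3l, the outer-membrane receptor known as NIX, ENSDARG00000025468 had 18.5 to 27.0 CPM in knockout pools and 18.5 to 20.8 CPM in control pools (log2 difference 0.16, edgeR adjusted p = 0.651). ENSDARG00000028067 had 62.1 to 66.2 CPM and 58.0 to 77.5 CPM in knockout and control pools (−0.03, which was 0.02 with upper-quartile scaling, edgeR adjusted p = 0.938). fundc2 (ENSDARG00000103740), the relative of fundc1, had 31.4, 32.2 and 31.5 CPM in knockout pools, against 23.1, 27.5 and 29.8 CPM in control pools. Its groups did not overlap, and its log2 difference of 0.24 did not pass (95% interval −0.01 to 0.49, edgeR adjusted p = 0.337). The related adaptor genes with the symbol calcoco1 differed by −0.07 (ENSDARG00000016391) and 0.08 (ENSDARG00000036695) on the log2 scale and did not pass (edgeR adjusted p = 0.922 and 0.799).

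pink1 (ENSDARG00000001929), the mitophagy kinase, had 29.7, 30.0 and 32.7 CPM in knockout pools, against 30.6, 30.0 and 27.9 CPM in control pools. The groups overlapped, with a log2 difference of 0.06 (95% interval −0.16 to 0.28, edgeR adjusted p = 0.815). For bnip3, fundc1, pink1, optn, sesn3 and deptor, the intervals lay within 0.48 of 0 on the log2 scale, so larger changes of these transcripts fall outside them. Protein levels, phosphorylation and mitophagy itself were not measured.

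**Figure D4:**
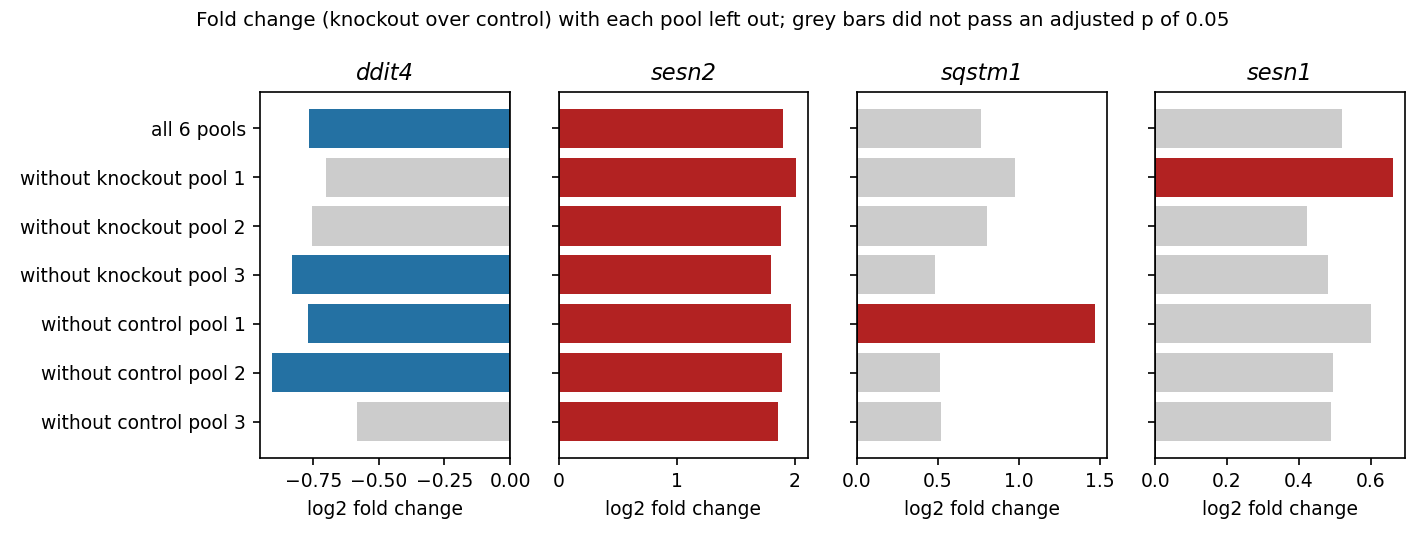
Log2 fold change (knockout over control) of ddit4, sesn2, sqstm1 and sesn1 in all 6 pools and with each pool left out, with a scale of its own for each gene; grey bars did not pass an adjusted p of 0.05. sesn2 stays between 1.80 and 2.01, while sqstm1 reaches 1.47 and passes without control pool 1.

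The genes whose log2 CPM over the 6 pools was most like that of sesn2, among 19584 genes with a symbol and a mean of at least 1 CPM, were tspan36, trib3 and ddit3, with Pearson r of 0.999, 0.999 and 0.998. All 3 rose, with log2 fold changes of 0.93, 1.33 and 0.72 (edgeR adjusted p = 4.039e-04, 1.081e-04 and 0.00161). As sesn2 splits by genotype, genes picked for a high r with it tend to rise too, so the likeness is a description only. trib3 and ddit3 (CHOP) are induced by the stress transcription factor ATF4 in mammals. trib3 had 60.1, 74.4 and 76.5 CPM in knockout pools, against 30.2, 27.5 and 26.1 CPM in control pools. Knockout pool 1 was the lowest knockout pool and control pool 1 the highest control pool, as for sesn2. ddit3 had 66.4, 71.5 and 74.1 CPM in knockout pools, against 42.7, 43.6 and 42.1 CPM in control pools, where control pool 2 was the highest.

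Most like ddit4 were eif4ebp3 (ENSDARG00000054916), csrnp1 and rorb, with Pearson r of 0.997, 0.987 and 0.983 over the 6 pools. None of the 3 passed with edgeR (log2 differences −0.46, −0.38 and −0.36, adjusted p = 0.0607, 0.116 and 0.178), although all 3 had an unadjusted p under 0.05. eif4ebp3, a member of the translation repressors that mTORC1 phosphorylates, had 30.4, 32.0 and 34.9 CPM in knockout pools, against 43.7, 39.8 and 50.7 CPM in control pools. Control pool 3 was the highest and knockout pool 1 the lowest, as for ddit4. The 6 points share the split by genotype, so these r values are a description only.

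Lists of the surrounding pathway were counted in the same fit. Of 27 tested genes of the mTORC1 core and its activators (kinase subunits, Rag GTPases and Ragulator) none passed with edgeR, DESeq2 or limma-voom, with 2 higher and 0 lower at an unadjusted p under 0.05 and a median log2 fold change of 0.08. The smallest p values were those of akt1s1, an inhibitory mTORC1 subunit (log2 difference 0.27, edgeR adjusted p = 0.277), and rragcb, a Rag GTPase (0.31, 0.298). Of 28 further inhibitors of mTORC1, which include the TSC and GATOR1 complexes and the energy sensor AMPK, none passed with edgeR or limma-voom and 1, sesn1, with DESeq2. At an unadjusted p under 0.05, 1 was higher and 1 lower, samtor, a sensor of S-adenosylmethionine (log2 difference −0.65, edgeR adjusted p = 0.117). The level of samtor was low, at 2.96, 1.99 and 2.26 CPM in knockout pools, against 3.81, 3.38 and 4.13 CPM in control pools. The median of the inhibitors was 0.09, with a positive log2 fold change in 22 of the 28 and a negative one in 6.

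Of 21 mTORC1 effectors none passed with edgeR or limma-voom, with 1 higher and 2 lower at an unadjusted p under 0.05 and a median of −0.02. DESeq2 called 1 higher and 1 lower. These were the translation repressor genes eif4ebp1 (log2 difference 0.42, edgeR adjusted p = 0.0776, DESeq2 0.028) and eif4ebp3 ENSDARG00000054916 (−0.46, 0.0607, DESeq2 0.0197), and eif4ebp1 also passed edgeR without knockout pool 1 (0.0186) and with upper-quartile scaling (0.0344). eif4ebp1 had 68.8, 87.2 and 81.9 CPM in knockout pools, against 58.1, 61.0 and 59.5 CPM in control pools. The other gene with the symbol eif4ebp3, ENSDARG00000041607, differed by −0.02 (edgeR adjusted p = 0.946).

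Of 35 other mitophagy genes none passed with edgeR, DESeq2 or limma-voom, with 3 higher and 2 lower at an unadjusted p under 0.05 and a median of 0.00. The smallest p values were those of parl, the inner-membrane protease that cleaves Pink1, with a log2 difference of −0.61 (edgeR adjusted p = 0.193), and ambra1, an autophagy regulator, with −0.27 (0.241). The level of parl was low, at 2.07, 2.82 and 3.63 CPM in knockout pools, against 5.02, 3.71 and 4.29 CPM in control pools. Without control pool 1, 1 gene of the list was called higher. Of 36 core autophagy genes none passed with edgeR, DESeq2 or limma-voom. A positive log2 fold change was seen in 31 of them (median 0.12), against 10597 of the 21602 genes tested. At an unadjusted p under 0.05, 5 were higher and 1 lower (over all genes tested, 1466 and 1903). Among the higher ones were gabarapa and gabarapl2, of the LC3 family, with log2 differences of 0.32 and 0.28 (edgeR adjusted p = 0.13 and 0.17).

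Of 43 genes of the TFEB family and of lysosomes, 1 rose and none fell with edgeR, and 37 had a positive log2 fold change (median 0.17), against 10597 of the 21602 genes tested. At an unadjusted p under 0.05, 9 were higher and 2 lower. The gene that rose was ctsd, the lysosomal protease cathepsin D, which had 356, 392 and 348 CPM in knockout pools, against 254, 252 and 256 CPM in control pools (log2 fold change 0.53, SE 0.10, edgeR adjusted p = 0.0148). It did not pass without knockout pool 2 (0.101), control pool 2 (0.08) or control pool 3 (0.0784). Without knockout pool 1, 2 genes of the list rose, and without knockout pool 2, 1 fell. DESeq2 called 3 higher and 1 lower, and upper-quartile scaling 3 higher.

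Stress programmes for which sesn2, ddit4 and bnip3 are known as targets in mammals were counted as well. Of 24 ATF4 factors and targets 13 rose with edgeR, 7 of them at least 2-fold, with a median log2 fold change of 0.58 over the list, and none fell with edgeR, DESeq2 or limma-voom, although 2 were lower at an unadjusted p under 0.05. The smallest p values were those of the serine synthesis genes psat1 and phgdh (log2 fold changes 2.01 and 1.30), the transcription factor gene atf5b (1.64) and the phosphatase subunit gene ppp1r15b (2.20). sesn2, at 1.90, lay within the range of the genes that rose, 0.51 (cebpg) to 2.20 (ppp1r15b). The whole list ran from −0.34 to 2.20, and ddit4, at −0.77, lay below it. Members not passing included atf4a itself (0.43, edgeR adjusted p = 0.0825) and chac1, a glutathione-degrading enzyme (0.28, 0.427).

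Of 9 glucocorticoid receptor targets 2 fell with edgeR and 3 with DESeq2, with a median of −0.28. None rose with edgeR, DESeq2 or limma-voom, and at an unadjusted p under 0.05 none was higher and 5 were lower. fkbp5, a co-chaperone of the receptor, had 44.6, 51.2 and 73.2 CPM in knockout pools, against 118, 105 and 215 CPM in control pools (log2 fold change −1.37, SE 0.27, edgeR adjusted p = 0.0145). Control pool 3 was its highest pool and knockout pool 1 its lowest, the same ends as for ddit4. It did not pass without knockout pool 1 (0.0545) or knockout pool 2 (0.0617). tsc22d3 (GILZ) had 78.6, 82.2 and 76.0 CPM in knockout pools, against 105, 124 and 111 CPM in control pools (log2 fold change −0.52, edgeR adjusted p = 0.0175). Its highest pool was control pool 2 and its lowest knockout pool 3, unlike ddit4. It did not pass without knockout pool 2 (0.0651), knockout pool 3 (0.075), control pool 2 (0.113) or control pool 3 (0.0748).

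Of 16 targets of hypoxia-inducible factors 1 rose and none fell with each of edgeR, DESeq2 and limma-voom, while 4 were higher and 2 lower at an unadjusted p under 0.05, with a median of −0.04. The gene that rose was higd1a, a protein of the inner mitochondrial membrane, which had 42.1, 34.6 and 40.5 CPM in knockout pools, against 16.7, 17.7 and 17.3 CPM in control pools (log2 fold change 1.18, SE 0.11, edgeR adjusted p = 1.081e-04). Without control pool 1, 2 genes of this list rose and 1 fell, and without knockout pool 1, 2 rose. Of 16 FoxO targets none passed with edgeR or limma-voom, with 3 higher and 0 lower at an unadjusted p under 0.05 and a median of 0.14, while DESeq2 called 2 higher. The log2 fold change was positive in 13 of the 16 targets and negative in 3. Without knockout pool 1, 3 of the targets rose, among them sesn1 and the muscle ubiquitin ligase gene trim63a. The log2 difference of trim63a was 0.71 with all pools (edgeR adjusted p = 0.134) and 0.96 without knockout pool 1 (0.00256).

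**Figure D5:**
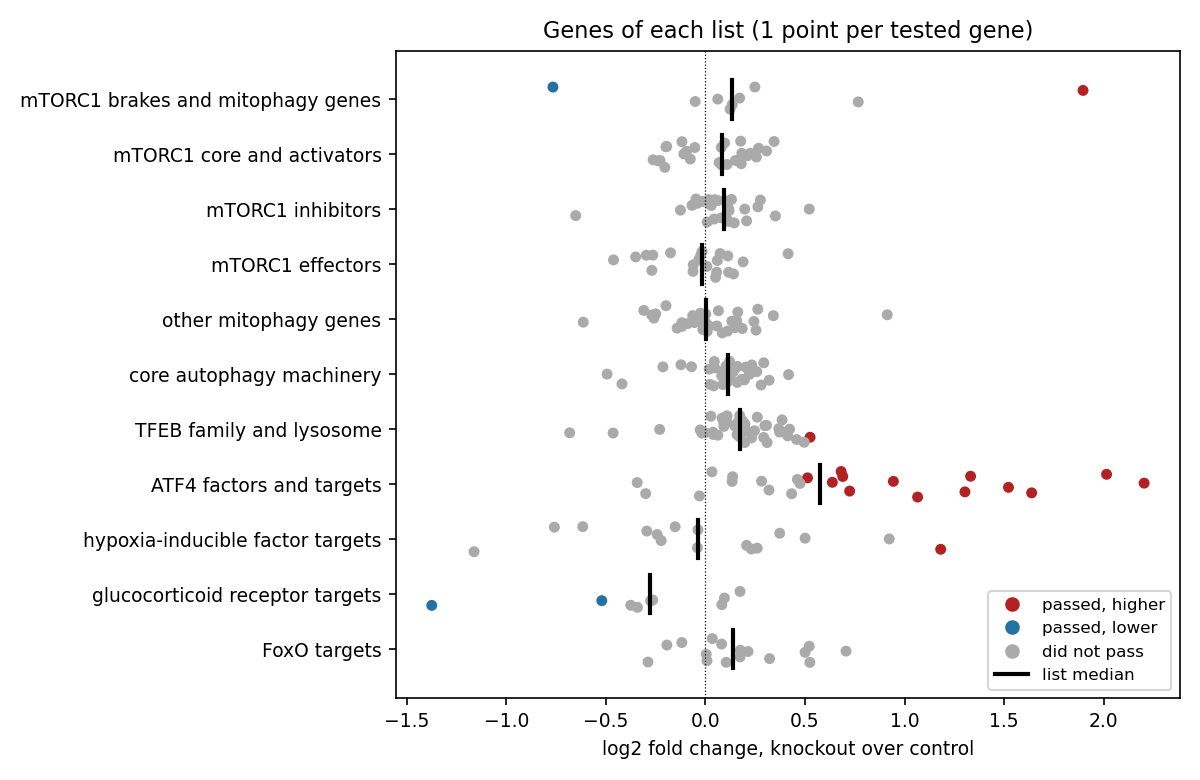
Log2 fold change (knockout over control) of every tested gene of the 9 brakes and mitophagy genes and of 10 lists of the surrounding pathways, 1 point per gene with random vertical spread; colour marks genes past an adjusted p of 0.05 and the black line is the median of the list. The ATF4 list has a median of 0.58, and the medians of the mTORC1, mitophagy, autophagy and lysosome lists lie between −0.02 and 0.17.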

How the data were processed

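The deposited values are estimated counts per Ensembl gene, stored as whole numbers. The submitters' processing notes name Salmon, DESeq2, FastQC and Trim Galore and the build GRCz11; their versions and roles are not given in the sources used here. Groups and pool numbers came from the titles. Symbols came from a table that named 23598 of 25859 genes, and are written here in lower case. Reads of close paralogs may be split wrongly, and so may those of overlapping genes, as the libraries were not stranded. The related genes and pathway lists, and the genes under study, were chosen with earlier results of these data known. Named were all genes under study and their relatives, up to 4 genes per list past the threshold (otherwise the 2 of smallest p), and the 3 genes most alike to each gene that passed. eif4ebp3 ENSDARG00000041607, atf4a, chac1, cebpg, the hsp70 genes, hspa2, tcap, egln3, fip1l1a, mmp28, usp28 and the ratios were chosen after values were seen.

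Genes were filtered with filterByExpr, scaled by TMM (factors 0.970 to 1.03) and tested with edgeR 4.0.16 in R 4.3.3 by the quasi-likelihood test with genotype as the only term and Benjamini-Hochberg adjustment over 21602 genes. SEs were taken from the F statistic (log2 fold change divided by its square root). The biological coefficient of variation was 12.7%. The filter removed 0.0516% of counts. The procedure was tested on simulated data. Pools of 1 genotype differed beyond counting error (chi-square per degree of freedom 7.22 to 20.6), so each was counted as 1 sample. Alternatives were RLE and upper-quartile scaling, no filter, at least 1 CPM in 3 pools, a 2-fold minimum, an adjusted p of 0.01, DESeq2 1.42.0, limma-voom (limma 3.58.1), a replicate block and each pool left out. Genome positions and sequences are not given.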

Additional observations from a re-analysis of the deposited data

How the results depend on the processing

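The call of sesn2 held under all alternatives, and no alternative reversed the direction of any of the 9 genes. With an adjusted p of 0.01 or a 2-fold minimum, 0 of the 9 fell (sesn2 still rose), and with single pools left out 0 to 1 fell and 1 to 2 rose. Over all genes, 317 were higher and 549 lower; an adjusted p of 0.01 gave 156 and 288, a 2-fold minimum 121 and 268, upper-quartile scaling 415 and 476, and single pools left out 189 to 346 and 360 to 635. hspd1, at −0.79, did not reach 2-fold, and lay at −0.86 to −0.73 with single pools left out. Among the genes named by rule, signs reversed only in relatives near 0. Genes chosen after values were seen were not part of this comparison. With single pools left out, log2 differences were −0.30 to 0.17 for calcoco1 ENSDARG00000016391 (0.070 and 0.005 without control pool 1 or 3) and −0.008 to 0.17 for ENSDARG00000036695. For bnip3l they were −0.022 to 0.28 (ENSDARG00000025468) and −0.095 to 0.13 (ENSDARG00000028067, which was also 0.021 with upper-quartile scaling). Of the list counts, an adjusted p of 0.01 gave 10 ATF4 genes higher, 0 lysosomal genes higher and 0 glucocorticoid receptor targets lower, and a 2-fold minimum gave 7, 0 and 1. The cause was not tested.

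Deviations from the group mean of same-numbered pools correlated at −0.20, 0.10 and −0.07. Those of pools with different numbers correlated at −0.17 to 0.22, highest for knockout pool 3 with control pool 1. As deviations within a group of 3 pools sum to 0, these values depend on each other. Whether same-numbered pools shared a mating set was not tested. With the replicate block 251 genes were higher and 487 lower, sesn2 (log2 fold change 1.89) and ddit4 (−0.75, edgeR adjusted p = 0.0189) still passed, and ctsd and tsc22d3 did not (0.055 and 0.0584). With 3 pools per group, p-values rest on pool-to-pool spread, which the fit estimates for each gene partly from the other genes.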
